A study of Mus musculus with 8 samples.

Results

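The AP-1 family was described from the probe sets of 8 genes, Fos, Fosb, Fosl1, Fosl2, Jun, Junb, Jund and Atf3. All 8 genes were on the array, with 12 probe sets whose only platform symbol was a member, of 45037 probe sets and 18193 genes tested. The cells were NIH3T3, an established mouse embryonic fibroblast line, transduced with the reporters mVenus-p27K- and mCherry-hCdt1(30/120), a cyclin-dependent kinase inhibitor mutant and a fragment of the licensing factor Cdt1. All of them had been held without serum and then grown for 5 h in 10% serum, so no unstimulated or earlier culture was compared. G0 cells were sorted as positive for both reporters and G1 cells as mVenus-negative and mCherry-positive, with 4 arrays of total RNA each. The labels do not say whether the transduced cells were 1 clone or a pool, and they name no separate cultures for the replicates. The p-values below therefore rest on the spread of these arrays alone, which may be technical. In sorted bulk samples fewer cells with a transcript and less of it in each cell cannot be told apart.

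AP-1 is a transcription factor made of 2 basic leucine zipper proteins, usually a Fos protein joined to a Jun protein. Jun proteins can also pair with each other, Fos proteins need a Jun partner, and Atf3 joins the family mostly as a stress-induced repressor. In fibroblasts Fos, Fosb and Junb are immediate early genes, transcribed within minutes of serum addition and soon shut off again, while Fosl1 and Fosl2 follow later and Jund is expressed more steadily. Dissociation, cold, heat and other handling can also induce these genes.

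Every deposited value is a log2 value from which the probe set's median over the 8 arrays has been taken away, so it shows differences between arrays and not how much of a transcript was present. The log base is not stated in the sources used here and was taken as 2. Low signal, which makes values scatter, cannot be recognised in such values. The labels' fibroblast identity can for the same reason not be checked by the level of marker genes. G0 replicate 3 and G1 replicate 4 stood apart from the other 6 arrays. Control probe sets for poly-A RNA spiked in before labelling had medians of −7.12 and −6.12 there and of −0.16 to 0.64 elsewhere. The beta-actin controls for the 5′ end lay 0.78 above those for the 3′ end on both, relative to their medians, against −0.19 to 0.12 on the other 6. By the labels, replicate 4 of each gate was labelled with kit revision 3, from 1 mg RNA as written there, and the others with revision 8, from 100 ng, which is not the division the spike-ins show. The divisions would coincide if the titles of G0 replicates 3 and 4 were exchanged. Whether they were is not known, and the titles are used here as given.

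Fos, the founding member and dimer partner of Jun, varied more within each gate than between them. In G0 the values were 1.77, −0.44, 1.70 and −1.17 on replicates 1 to 4, and in G1 they were 1.77, −0.61, −1.51 and 0.44. The highest and the lowest array were both G1 arrays, 9.70-fold apart, and the G0 values lay inside that range. The arrays numbered 1 were high in both gates and those numbered 2 lay below the median in both. As titled, those numbered 3 and 4 lay on opposite sides of it. With the titles of G0 replicates 3 and 4 exchanged, the values −1.17 and −1.51 would share a number, as would 1.70 and 0.44. That each number would then lie on 1 side follows from the values as titled and is no test of an exchange. For Atf3 an exchange would part the low values −1.32 and −2.52, which share a number as titled. The gate accounted for 2.96% of the sum of squares of Fos over the 8 arrays.

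Fosb, a close relative of Fos that is induced by the same stimuli, gave the same picture on a smaller scale. Its values were 1.43, −0.0042, 0.78 and −0.82 in G0 and 1.48, −0.18, −1.01 and 0.0042 in G1. The extremes were again both G1 arrays, 5.62-fold apart, and the gate accounted for 2.42% of the sum of squares. Junb, the Jun protein that is induced together with Fos, read 0.67, −0.18, 1.39 and −1.45 in G0 and 0.24, −0.67, −0.89 and 0.18 in G1. Its extremes were both G0 arrays, 7.15-fold apart, and all 4 G1 values lay between them. The gate accounted for 5.31% of its sum of squares.

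The promoters of these 3 genes are shown because their transcripts followed each other over the arrays. They are the 250 bases before the RefSeq start site in GRCm38.p6, 5′ to 3′ along the gene, with searched motifs in capitals.
Fos (chr12:85473640-85473889, plus strand): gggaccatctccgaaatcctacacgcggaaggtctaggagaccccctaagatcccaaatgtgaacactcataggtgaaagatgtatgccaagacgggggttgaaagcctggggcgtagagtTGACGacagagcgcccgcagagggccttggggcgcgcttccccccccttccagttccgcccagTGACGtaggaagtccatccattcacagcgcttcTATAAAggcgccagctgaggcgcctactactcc
Fosb (chr7:19310046-19310295, minus strand): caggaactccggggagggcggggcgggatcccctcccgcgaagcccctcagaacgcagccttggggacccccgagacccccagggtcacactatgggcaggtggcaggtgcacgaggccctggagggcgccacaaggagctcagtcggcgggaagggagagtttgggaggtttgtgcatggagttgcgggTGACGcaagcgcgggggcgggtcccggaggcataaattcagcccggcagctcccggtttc
Junb (chr8:84978749-84978998, minus strand): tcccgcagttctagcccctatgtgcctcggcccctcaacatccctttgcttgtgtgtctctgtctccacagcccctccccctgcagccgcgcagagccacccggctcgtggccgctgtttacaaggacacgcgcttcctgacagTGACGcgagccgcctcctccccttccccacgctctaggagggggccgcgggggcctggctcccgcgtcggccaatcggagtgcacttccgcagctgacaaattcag
The motifs searched on both strands were the AP-1 site TGACTCA, the cyclic AMP response element TGACGTCA, the CArG box, which binds the serum response factor, and the TATA sequence TATAAA. The 5-base core TGACG, part of the longer response element, was added after the sequences had been seen. Of the members, 7 matched the promoter table, which held 32851 promoters. Fosl1 was not matched. None of the 7 held TGACTCA, TGACGTCA or a CArG box in these 250 bases, and of all promoters 4.46%, 1.55% and 1.47% did. Fos alone of the members held TATAAA, 28 to 33 bases before the start, as 12.4% of all promoters did. TGACG stood at 2 places in Fos, 62 to 66 and 125 to 129 bases before the start. It was found once in Fosb, at 56 to 60, and once in Junb, at 102 to 106. Atf3 had its reverse complement at 3 to 7 bases. These are 4 of the 7 members matched, where 17.8% of all promoters held TGACG. A match is a description of letters and was not tested as a binding site. Bases outside these 250 were not searched, so the absence of a motif here does not mean that the gene lacks it.

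Jun, the partner that Fos proteins need for strong DNA binding, was among the quieter members. Its probe set 1417409_at read −0.043, −0.0082, 0.36 and 0.0082 in G0 and 0.061, −0.18, −0.64 and 0.032 in G1. Its other probe set, 1448694_at, read 0.040, 0.38, 0.048 and −0.040 in G0 and 0.14, −0.16, −0.35 and −0.51 in G1. The lowest values were on G1 arrays for both, but the gates overlapped. After removal of the gate means the pair had a Pearson r of 0.17 over the 8 arrays (Spearman rho 0.24, exact permutation p = 0.745 and 0.632, r 0.072 without the 2 arrays farthest from the median). The ups and downs of a single Jun probe set were thus not shared by the other.

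Jund, the most constantly expressed Jun protein, was read differently by its probe sets. With 1440265_at the values were −0.17, −0.44, 0.16 and −0.16 in G0 and 0.71, −0.31, 0.41 and 0.32 in G1, so that 3 of the 4 G1 arrays lay above all G0 arrays. With 1449117_at they were 0.10, −0.057, 1.38 and −0.21 in G0 and 0.057, −0.43, −0.54 and 0.75 in G1. The highest values of the second probe set were those of the 2 arrays without spike-ins. A direction between the gates could not be read for Jund, since the mean differences had opposite signs, 0.43 and −0.35.

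Fosl1, or Fra-1, a Fos protein sustained by ERK signalling, also had probe sets that disagreed. With 1417487_at it read −0.75, 1.09, −0.93 and 0.41 in G0 and −0.40, 1.14, 0.40 and −0.61 in G1. With 1417488_at it read −0.41, 0.077, 0.61 and −0.32 in G0 and −1.07, −0.077, 0.48 and 0.99 in G1. The array titled G1 replicate 4 was among the lowest with the first and the highest with the second. Their r was −0.11 with the gate means removed (rho −0.31, exact permutation p = 0.792 and 0.462). Fosl1 values are therefore given per probe set and not combined.

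Fosl2, or Fra-2, a Fos protein of the later serum response, had the only probe set of the 12 whose gates did not overlap. With 1437247_at it read 0.71, 0.55, 0.44 and 0.19 in G0 and −0.88, −0.19, −0.73 and −0.88 in G1. All G1 values lay below all G0 values, and of all probe sets 6.06% did not overlap in either direction and 2.9% were lower in G1. The mean was 0.47 ± 0.22 in G0 and −0.67 ± 0.33 in G1 (SD, n = 4), a 2.21-fold lower value in G1. With 1422931_at Fosl2 read 0.36, 0.15, 0.064 and −0.30 in G0 and −0.27, 0.25, −0.064 and −0.19 in G1, with overlap and a mean difference of only −0.14. Within the gates both probe sets ranked the arrays alike (r 0.94, rho 0.95, exact permutation p = 0.00347 and 0.00521, adjusted p = 0.014 for r over the 4 genes with 2 probe sets). That r was 0.98 without the 2 arrays farthest from the median. The probe sets of Fosl2 thus shared the variation within gates and differed in the size of the difference between them.

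Atf3, the stress-induced member, had the widest span, 10.7-fold. It read −0.12, 0.90, −1.32 and −0.17 in G0 and 0.12, 0.18, −2.52 and 0.49 in G1. A low array occurred in each gate, the one titled replicate 3, and the other 6 values lay between −0.17 and 0.90. The arrays that were low in Atf3 were at opposite ends for Fos, with 1.70 on G0 replicate 3 and −1.51 on G1 replicate 3.

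**Figure D1:**
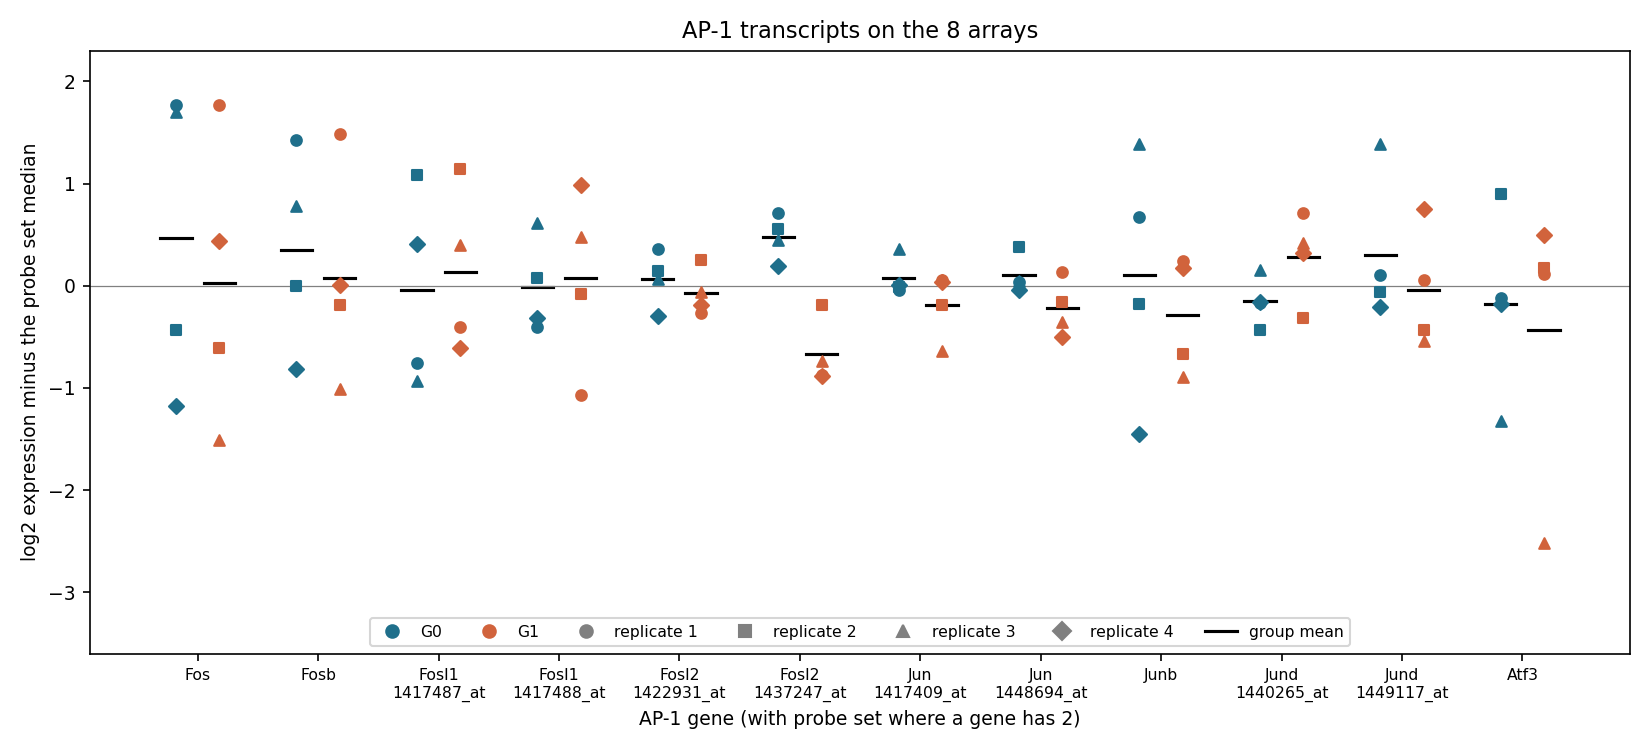
Each point is the log2 value of an AP-1 probe set on 1 array relative to the probe set's median, with G0 in blue, G1 in orange, a symbol for each replicate number and a bar at each group mean. The gates overlap for all probe sets except Fosl2 1437247_at, and Fos, Fosb and Atf3 spread widely in both gates. Junb spreads more widely in G0 (SD 1.22) than in G1 (SD 0.58).

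The comparison of the gates asks whether cells still in quiescence differ in AP-1 transcripts from cells that had entered G1 in the same culture regime. None of the 12 member probe sets passed an adjusted p of 0.05 in limma, fitted on all probe sets with the labelled kit revision as a covariate, and 1 was lower at an unadjusted p under 0.05. Of all 45037 probe sets 180 passed, or 0.4%, with 0.373% higher and 0.0266% lower in G1. An unadjusted p under 0.05 was reached by 7.3%, of which the lower ones made up 3.59% of all probe sets. Of the members 9 probe sets were lower on average in G1 and 3 higher, with a median log2 difference of −0.27 against −0.058 for all probe sets. The probe set at an unadjusted p under 0.05 was Fosl2 1437247_at (log2 difference −1.15, standard error, SE, 0.24, limma adjusted p = 0.196). The exact permutation test over the arrays gave it p = 0.029, two-sided, the smallest that 4 arrays against 4 allow.

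The intervals show how much of a difference this limma fit, which treats the arrays as unpaired, leaves room for. Intervals with arrays paired across the gates are not given and could differ. For Fos the log2 difference, G1 minus G0, was −0.44 (SE 0.91) with a 95% confidence interval of −2.58 to 1.70. Neither a 2-fold rise nor a 2-fold fall lies outside that unpaired interval. For Fosb the difference was −0.27 (interval −1.71 to 1.16), for Junb −0.39 (−1.79 to 1.01) and for Atf3 −0.25 (−2.08 to 1.57). The intervals of the quieter genes were narrower. For Jun they ran from −0.85 to 0.32 and, with 1448694_at, from −0.84 to 0.19, and for Fosl2 1422931_at from −0.64 to 0.36. For Jund they ran from −0.22 to 1.09 and, with 1449117_at, from −1.41 to 0.72. For Fosl1 they ran from −1.20 to 1.56 and from −0.998 to 1.18. The sign of several differences rested on 1 array. Without G1 replicate 3 the difference was 0.17 for Fos, 0.18 for Fosb and 0.43 for Atf3. Without G0 replicate 1 it was 0.034 for Fosb and −0.088 for Fosl1, and without G0 replicate 2 it was 0.18 for Atf3. Without G0 replicate 3 or G1 replicate 2 it was −0.15 or −0.16 for Fosl1. Limma adjusted p-values of the 12 lay between 0.196 and 0.989. With the spike-in state in place of the labelled revision, 0 of the 12 passed as well, while 0.788% of all probe sets did, and 1 member, Fosl2 1437247_at, had an unadjusted p under 0.05 (adjusted p = 0.111), as 11.3% of all probe sets did.

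Within the labelled revisions, which rest on the titles of G0 replicates 3 and 4, the induced members had differences of opposite sign. Fos differed by −1.12 among the arrays of revision 8 and by 1.61 between those of revision 3, Fosb by −0.64 and 0.82, and Junb by −1.07 and 1.63. With the arrays divided by the spike-ins, their differences had 1 sign. Those of Fos were −0.17 on the 6 arrays with spike-ins and −1.26 between the 2 without, those of Fosb −0.11 and −0.78, and those of Junb −0.12 and −1.21. The differences of Atf3 were −0.94 and 1.81. The differences of Fosl2 1437247_at were −1.17 and −1.07 within the revisions and −1.09 and −1.32 within the spike-in states. Since its gates did not overlap, any division of the arrays gives a negative difference, so the shared sign adds no support. Revision 3 and the arrays without spike-ins hold 1 array per gate, which allows no test.

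**Figure D2:**
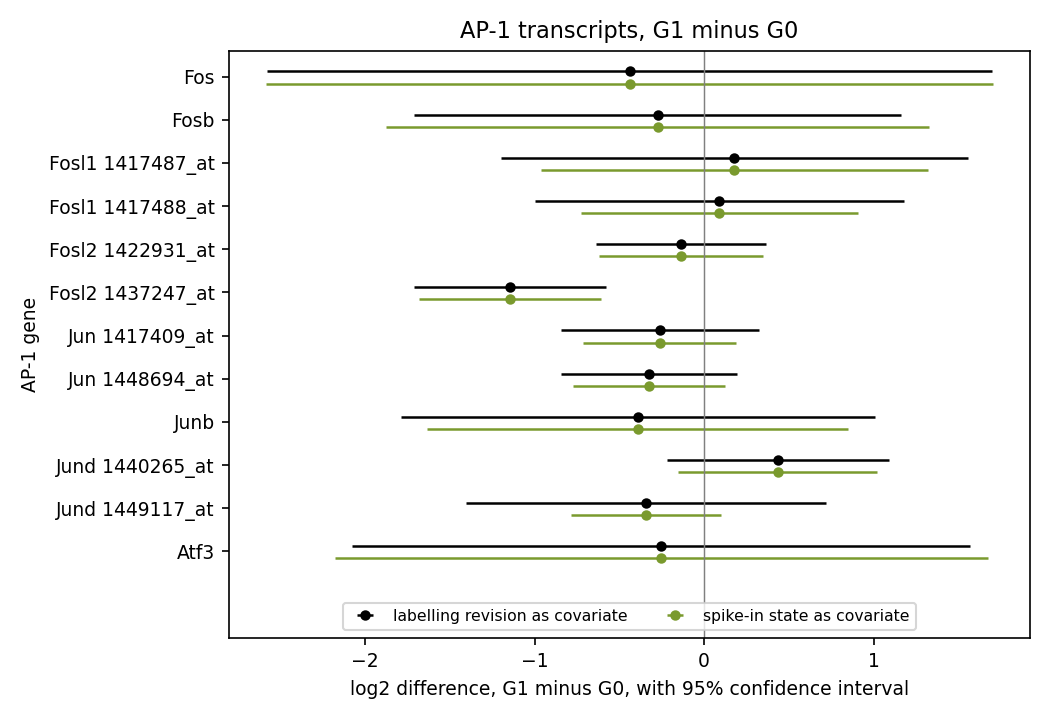
Points are log2 differences, G1 minus G0, of the 12 AP-1 probe sets and bars their 95% confidence intervals in limma, in black with the labelled kit revision as covariate and in green with the spike-in state. The intervals of Fosl2 1437247_at lie below 0, from −1.72 to −0.58 and from −1.68 to −0.61, and those of the other 11 span 0.

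The variation that both gates share was measured as the correlation of members over the 8 arrays after the mean of each gate had been removed, with 1 probe set per gene and 28 pairs. Fos and Fosb rose and fell together (r 0.96, rho 1.0, exact permutation p = 0.00174 for both, adjusted p = 0.049 for both over the 28 pairs). The p of 0.00174 is the smallest that the 576 permutations within gates can give. Fos and Junb followed each other too (r 0.89, exact permutation p = 0.00347, adjusted p = 0.049; rho 0.88, p = 0.0104, adjusted p = 0.097), so this pair passed with r and not with rho. Without the 2 arrays farthest from the median of Fos, G0 replicate 4 and G1 replicate 1, r was 0.93 for both pairs. In G0 alone r was 0.96 for Fos with Fosb and 0.94 for Fos with Junb, and in G1 alone 0.97 and 0.93. With the spike-in state removed as well r was 0.995 and 0.90. The permutations treat the arrays as unpaired across the gates. Over the member probe sets the same-numbered arrays correlated at 0.84, 0.90, 0.016 and −0.30. The p-values of the pairs take no account of this and may be too small.

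No other pair passed the adjustment. Fosb and Junb had an r of 0.79 (rho 0.88, exact permutation p = 0.0243 and 0.0104, adjusted p = 0.227 and 0.097). Fosl1, read here with 1417487_at, had negative r with Fos (r −0.79, rho −0.60, exact permutation p = 0.0781 and 0.184, adjusted p = 0.310 and 0.591) and with Jund (r −0.76, rho −0.64, exact permutation p = 0.0347 and 0.0972, adjusted p = 0.243 and 0.519). Without the 2 arrays farthest from the median of Fosl1 that last r was −0.32, so it rests on G0 replicate 2 and G1 replicate 2. The other Fosl1 probe set, 1417488_at, had an r of −0.24 with Fos and −0.091 with Jund. Jun, read here with 1417409_at, had an r of 0.69 with Fos (rho 0.50, exact permutation p = 0.0885 and 0.252, adjusted p = 0.310 and 0.591). Its other probe set, 1448694_at, had an r of 0.25 with Fos. Atf3 had r of 0.18 with Fos and 0.0017 with Junb (rho 0.14 and 0.048, exact permutation p of r = 0.674 and 0.998). The gates differed in sign there, with r of −0.57 in G0 and 0.70 in G1 for Fos and of −0.52 and 0.72 for Junb, over 4 arrays each and with the difference not tested. Without the 2 arrays farthest from the median of Junb its r with Atf3 was 0.46. Of the 28 pairs 20 had a positive r and 8 a negative one, with a median of 0.218.

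**Figure D3:**
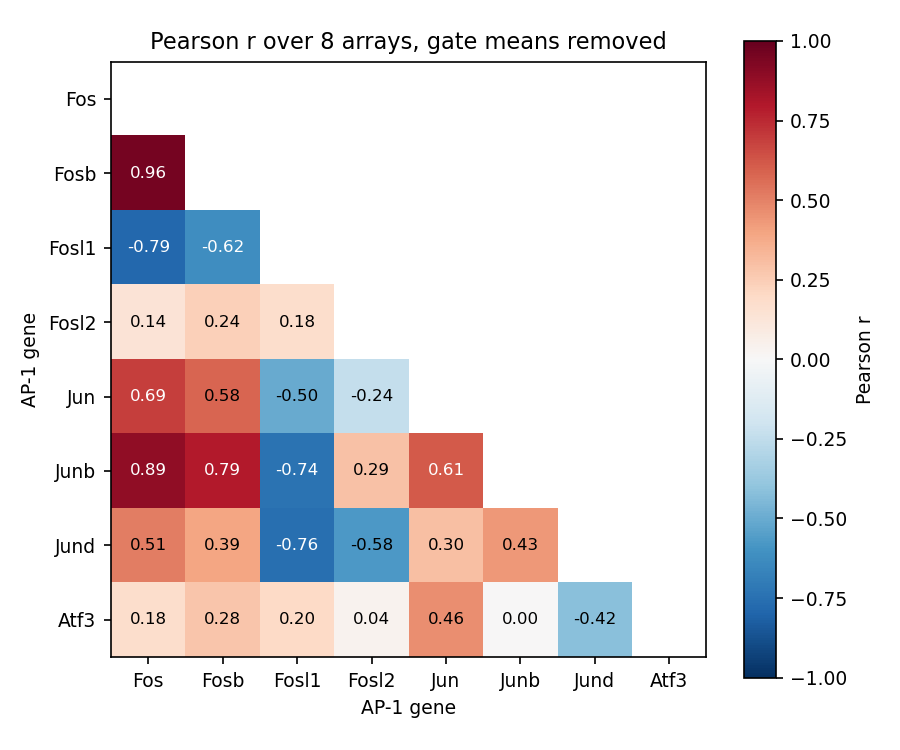
Each cell gives Pearson's r of a pair of AP-1 genes over the 8 arrays with the gate means removed, from blue at −1 to red at 1. Fos with Fosb (0.96) and Fos with Junb (0.89) are the highest, and Fosl1, read with 1417487_at, has negative values with Fos, Fosb, Jun, Junb and Jund.

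The members also differed in how far they spread over the arrays. The SD within gates was 1.45 for Fos, 1.18 for Atf3, 1.01 for Fosb and 0.96 for Junb, against a median of 0.70 over all probe sets. It was 0.27 and 0.24 for the probe sets of Jun, 0.25 and 0.28 for those of Fosl2 and 0.35 and 0.66 for those of Jund. For Fosl1 it was 0.89 and 0.70. Of all probe sets 83.7% had a smaller SD within gates than Fos and 16.1% a smaller one than Jun 1417409_at. For Atf3, Fosb and Junb that share was 71.2%, 63.3% and 61.2%, so the spread of Fosb and Junb was not unusual. The neighbours Fosb and Junb differ too little in SD to be ordered.

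The genes whose pattern was most like that of Fos were sought among the genes with an SD within gates of at least 0.3, by r over the 8 arrays with the gate means removed. The first 5 were Cda, cytidine deaminase (r 0.996), Lyplal1, a lysophospholipase-like protein (0.991), Shisa4 (0.970), Gatb, a subunit of the mitochondrial glutamyl-tRNA amidotransferase (0.969), and Zfp36, an immediate early gene that encodes an mRNA decay factor (0.967). Zfp36 read 0.67, −0.13, 0.86 and −0.33 in G0 and 0.35, −0.62, −1.18 and 0.13 in G1, with the same arrays above its median as Fos. The 5 most like Jun, read with 1417409_at, were Dip2a, D830039M14Rik, Prtn3, Tspan11 and Sectm1a, with r from 0.967 to 0.973. The other Jun probe set did not share that pattern (r 0.17 between the probe sets). The 5 most like Atf3 were Pex16, an immunoglobulin kappa variable gene, Dpp4, C230034O21Rik and Nlrp10, with r from 0.950 to 0.985. In each of these 5 the lowest values of both gates were those of replicate 3, as in Atf3. Without the 2 arrays farthest from the median of Atf3 these r fell to between 0.60 and 0.929. These r are descriptions over 8 arrays that share labelling and scanning, chosen as the highest among many genes, and have no p.

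Among 28 other immediate early genes, which serum induces along with Fos, 5 had an r above 0.8 to Fos, or 17.9%, while 3.85% of all genes did. They were Zfp36, Btg2, an antiproliferative factor (0.87), Ier2 (0.84), Egr1, a zinc finger factor (0.83), and Ccn1, a matrix signalling protein (0.80). These 5 were named after their values had been seen. Egr1 read 1.61, 0.12, 0.47 and −0.28 in G0 and 2.37, −0.12, −1.33 and −0.38 in G1, highest on the array numbered 1 of each gate like Fos. The median r of the 28 genes was 0.119, against 0.134 for all genes. At the other end 2 genes ran below −0.8, the growth factor-induced Myc (−0.91) and the nuclear receptor Nr4a1 (−0.82), or 7.14% where 2.23% of all genes did. The immediate early genes thus fell on both sides of Fos. Of 12 heat shock genes, which encode chaperones, 4 had an r above 0.8 to Fos, or 33.3%, and the median was 0.680. They were Hsph1 (0.93), Hspa1b, an inducible Hsp70 (0.92), Dnajb1 (0.89) and Hspb1 (0.83), also named after their values had been seen. Hspa1a, a near-identical inducible Hsp70 gene, had an r of −0.20 and Hspb8 one of −0.50, so the value of Hspa1b is uncertain as a reading of Hsp70. Hspa1b read 0.54, −0.23, 0.53 and −0.13 in G0 and 0.44, −0.85, −1.12 and 0.13 in G1. Of the 11 fibroblast markers 1 had an r above 0.8 to Fos, Pdgfrb (0.86), and 1 an r below −0.8, Thy1 (−0.85), with a list median of 0.161. The part that handling, sorting or labelling may have in this shared variation was not tested.

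**Figure D4:**
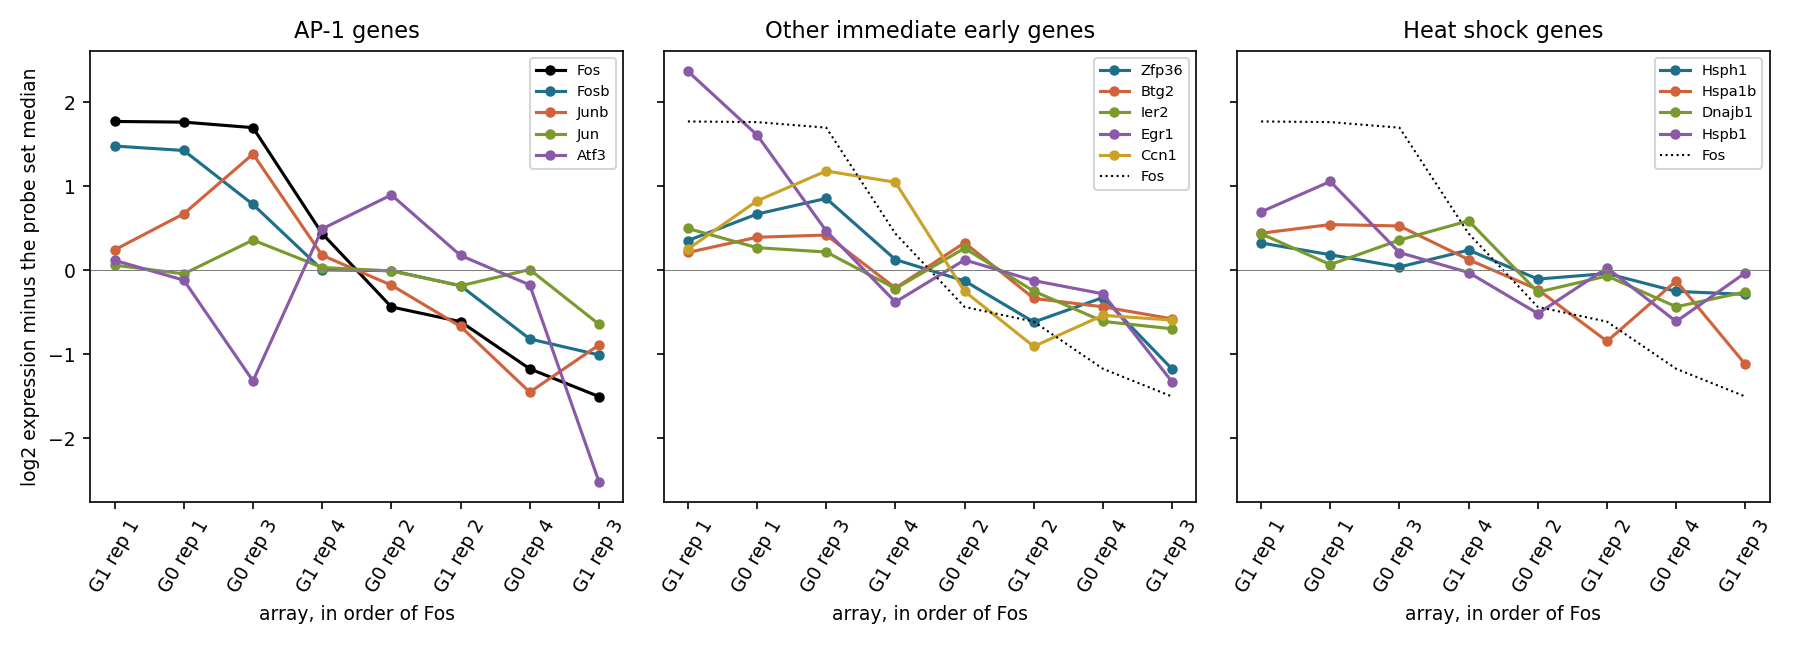
Lines give log2 values relative to the probe set median on the 8 arrays, ordered from the highest to the lowest Fos value, for AP-1 genes, other immediate early genes and heat shock genes, with Fos dotted in the panels of the other lists. Of those other lists only the genes with an r above 0.8 to Fos are drawn, so their likeness to Fos follows from the choice. Listed genes that ran against Fos, such as Myc (−0.91), Nr4a1 (−0.82) and Hspb8 (−0.50), are not drawn. Fosb and Junb fall along with Fos across arrays of both gates, Zfp36 and Hspa1b are high where Fos is high, and Atf3 has its lowest values at −1.32 and −2.52.

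The arrays without spike-ins were compared with the other 6, with the gate as a covariate. Of the 12 member probe sets 1 passed, Jund 1449117_at, 2.38-fold higher on the arrays without spike-ins (log2 difference 1.25, SE 0.22, limma adjusted p = 0.029). Of all probe sets 4.75% passed, 3.94% higher and 0.808% lower, and 21.7% had an unadjusted p under 0.05, as 2 members did. Its values on those arrays, 1.38 and 0.75, lay above all 6 others, which ran from −0.54 to 0.10, and the 5′ over 3′ beta-actin difference was high on the same arrays. The other Jund probe set differed by 0.23 (adjusted p = 0.686). Fos differed by 1.10 (interval −1.38 to 3.58), Junb by 1.16 (−0.28 to 2.60), Fosl1 by −1.09 and 1.02 on its probe sets, and Atf3 by −0.14. Fos spanned −1.51 to 1.77 on the 6 arrays with spike-ins, as wide as over all 8. With 1 probe set per gene, 6 of the 159 measured entries of the member list and the lists described below passed. That share is near the 4.09% of all genes that did, so the count says nothing particular about genes around AP-1. Rhob, a small GTPase induced by growth factors, was higher without spike-ins by 1.91 (limma adjusted p = 0.026). The Fos activator Elk1 (1.49), the kinase Map2k4 upstream of JNK (1.43), the Jun partner Atf2 (0.78) and the collagen gene Col1a1 (2.82) were higher too, with adjusted p from 0.017 to 0.037. The amino acid transporter gene Slc7a5 fell by 1.53 (adjusted p = 0.027). For the labelled kit revision 0 of the 12 passed, as did 0% of all probe sets in limma, with 0 members and 3.37% of all probe sets at an unadjusted p under 0.05.

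**Figure D5:**
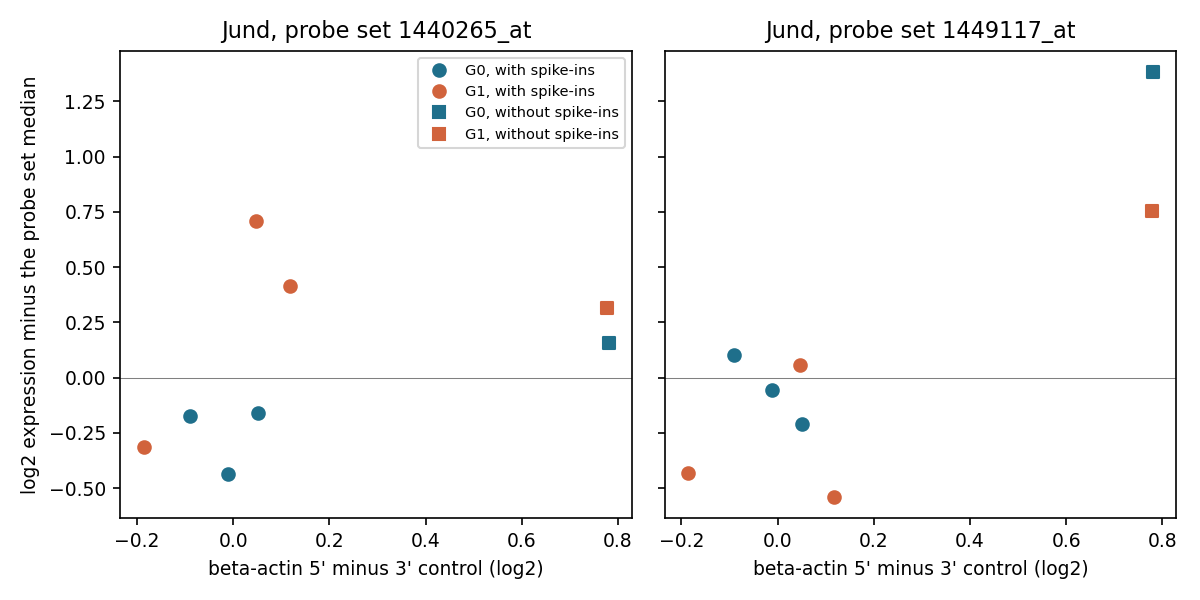
The log2 values of the Jund probe sets are plotted against the log2 difference between the 5′ and 3′ beta-actin control probe sets, each relative to its median, on 8 arrays. The squares, arrays without spike-ins, lie at 0.78 on the horizontal axis and above all circles for 1449117_at but not for 1440265_at.

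The genes around AP-1 were counted from 10 lists, with 1 probe set per gene. Of all 18193 genes 0.522% passed in limma, 0.5% higher and 0.022% lower in G1. An unadjusted p under 0.05 was reached by 8.07%, with 4.33% higher and 3.74% lower. Their median log2 difference, G1 minus G0, was −0.060. In none of the 10 lists did a gene pass. Of 19 basic leucine zipper partners and inhibitors of AP-1, 3 were lower at an unadjusted p under 0.05 and the median was −0.32. Those with the largest differences were Jdp2, a repressor that pairs with Jun (1.26, adjusted p = 0.851), Atf7 (−1.003, adjusted p = 0.769) and Cebpb (−0.79, adjusted p = 0.547). Of 18 kinases and factors upstream of Fos and Jun, 1 was higher at that p and the median was −0.073. The largest differences were those of Mapk8, the Jun kinase JNK1 (0.78, adjusted p = 0.652), and of Elk4 and Elk1, serum response factor partners (−0.63 and −0.62, adjusted p = 0.844 and 0.864).

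Of 22 AP-1 target genes 16 had a lower mean in G1, with a median of −0.28, and 4 had an unadjusted p under 0.05, all lower. Without the replicate 4 arrays that median was 0.12, so its sign rests on them. The largest were the chemokine Ccl2 (−1.13, SE 0.30, limma adjusted p = 0.362), the gelatinase Mmp9 (−1.09, adjusted p = 0.583) and the cytokine Il6 (−1.08, adjusted p = 0.660). Il6 read 1.40, 1.16, −0.11 and 0.11 in G0 and 0.22, −0.38, −1.07 and −0.52 in G1, which is not the order of Fos. The median r of the 22 genes to Fos was −0.486, against 0.134 for all genes. Of the 22, Plaur, Hbegf, Ezr and Cd44 had an r below −0.8, or 18.2%, where 2.23% of all genes did. They were named after their values had been seen. Of the 28 other immediate early genes 23 had a lower mean in G1, with a median of −0.32, and 3 had an unadjusted p under 0.05, all lower. The largest differences were those of the nuclear receptors Nr4a2 (−1.52, adjusted p = 0.810) and Nr4a3 (−1.23, adjusted p = 0.879) and of the repressor Bhlhe40 (−0.98, adjusted p = 0.640).

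Of 16 targets of Atf4 and the integrated stress response, which also induces Atf3, 2 had an unadjusted p under 0.05, both lower, with a list median of −0.097. They were Vldlr, a lipoprotein receptor (−2.18, SE 0.36, limma adjusted p = 0.078), and Ddit4, an mTORC1 inhibitor (−1.10, adjusted p = 0.280). Xbp1, a factor of the unfolded protein response, differed by −0.61 (adjusted p = 0.762). Vldlr passed with the spike-in state as covariate (adjusted p = 0.041). Its values were 0.64, 1.09, 0.65 and 1.58 in G0 and −0.88, −1.73, −0.64 and −1.48 in G1, without overlap. The heat shock list had 0 of 12 genes at an unadjusted p under 0.05 and a median of 0.11. Its largest differences were those of Hspa1b (−0.53, adjusted p = 0.880), Bag3 (−0.40, adjusted p = 0.829) and Hspb8 (−0.35, adjusted p = 0.837).

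Markers of the cell types that a culture could hold were read as differences only. Of all genes 4.33% were higher and 3.74% lower at an unadjusted p under 0.05. Of 11 fibroblast markers 1 was lower at an unadjusted p under 0.05, with a median of −0.22. Pdgfrb, Col1a1 and Col3a1 differed most (−1.69, −0.86 and −0.72, adjusted p = 0.842, 0.916 and 0.432). Of 9 leukocyte markers 2, Adgre1 and Lyz2, were lower at that p, with a list median of 0.049. The largest differences were those of Ptprc, Tyrobp and Adgre1 (1.05, −0.76 and −0.74). Of 8 epithelial markers 0 had an unadjusted p under 0.05, with a median of 0.44, led by Cldn4, Epcam and Cdh1 (1.12, 0.84 and −0.58). Of 8 endothelial markers 2 were higher, with a median of 0.22, led by Pecam1, Erg and Cdh5 (1.16, 0.996 and −0.94). None of these passed in limma (adjusted p from 0.432 to 0.966 for those named). The median of the leukocyte list on single arrays spanned −0.14 to 0.44 in G0 and −0.30 to 0.0070 in G1, so the gates overlapped. Their part in the AP-1 values was not tested.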

How the data were processed

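RNA of 8 sorted samples was measured on Affymetrix mouse arrays. The deposited log2 values have 1 column per array; per the submitters' processing notes, MAS5 produced the signals. The steps that took logs and centred each probe set on its median (largest absolute median 5e-07) are not given in the sources used here. Of 45101 probe sets 64 controls were left out. Symbols came from the platform annotation, updated by Entrez identifier to GRCm38.p6 for 34741 probe sets; no array coordinates were used. Other probe sets of a gene were not averaged: a gene was represented by its _at, then _a_at, _s_at or _x_at probe set with the lowest number. No level filter was possible.

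The difference G1 minus G0 came from limma 3.58.1, run in R 4.3.3 (lmFit, eBayes with trend, two-sided, Benjamini-Hochberg over 45037 probe sets, threshold 0.05), with the labelled kit revision as covariate (5 residual degrees of freedom). The fit and the correlations, computed in Python 3.11.15, were checked on simulated data. Alternatives were other covariates, fewer arrays, no trend, array scaling and averaged probe sets. Same-numbered replicates were not treated as pairs. Members and lists were chosen with earlier results of these data known. Named genes were all members, every list gene past the threshold or otherwise the 3 with the largest difference in each list, and the 5 genes most like Fos, Jun and Atf3. The number of arrays limits the precision.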

Additional observations from a re-analysis of the deposited data

Results flagged for a closer look

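In 24 tests, of 12 AP-1 probe sets in 2 gates, a single array stood apart from the other 3 of its gate by Dixon's test in 2, and chance gives about 1 in 20. Atf3 was at −2.52 on G1 replicate 3, with the nearest G1 value at 0.12. Without that array the log2 difference of Atf3, G1 minus G0, was 0.43 in place of −0.25 (limma adjusted p = 0.963 and 0.983). Jun 1417409_at was at 0.36 on G0 replicate 3, an array without spike-in signal, with the nearest G0 value at 0.0082. The other Jun probe set was not apart there.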

How the results depend on the processing

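The count of 0 AP-1 probe sets past the threshold held in limma without a covariate, with the spike-in state, with the replicate block (0), on 6 arrays, on the revision 8 arrays, without the trend, with arrays centred on their medians, without probe sets tied at their lowest value, and with each array left out. With a single array left out the log2 difference ran from −1.12 to 0.17 for Fos, from −0.70 to 0.18 for Fosb, from −1.07 to −0.0054 for Junb, from −0.60 to 0.43 for Atf3 and from −0.16 to 0.58 for Fosl1. It changed sign for Fos without G1 replicate 3 (0.17) and for Fosb without G0 replicate 1 (0.034) or G1 replicate 3 (0.18). It did so for Atf3 without G0 replicate 2 (0.18) or G1 replicate 3 (0.43), and for Fosl1 without G0 replicate 1 (−0.088), G0 replicate 3 (−0.15) or G1 replicate 2 (−0.16). The ranges kept their sign for Jun (−0.36 to −0.11), Fosl2 1422931_at (−0.22 to −0.039) and Jund 1440265_at (0.28 to 0.64). Where 1 replicate 4 array was left out, the revision covariate took up the other. Those fits therefore gave the differences of the revision 8 arrays alone, and not those of losing a single array. The range ends of −1.12 for Fos, −1.07 for Junb, 0.58 for Fosl1 and −0.36 for Jun are of this kind. The mean of both probe sets gave −0.64 for Fosl2 (limma adjusted p = 0.591) and 0.044 for Jund. Among Atf4 and stress targets 1 gene, Vldlr, passed with the spike-in state and 1 without a covariate, where 0 did before. With single arrays left out the list median ran from −0.55 to 0.12 for AP-1 targets, from −0.19 to 0.050 for Atf4 targets, from −0.038 to 0.21 for heat shock genes, from −0.25 to 0.22 for leukocyte and from −0.0064 to 0.46 for endothelial markers, and kept its sign in the other 5 lists. The causes were not tested. With rho in place of r, 1 pair of members passed in place of 2. Deviations of same-numbered arrays from their gate means correlated at 0.069, 0.11, −0.14 and −0.14 over all probe sets, so the numbers were not used as pairs in the main fit. There G0 replicate 3 correlated best with G1 replicate 4 (0.31), and G0 replicate 4 with G1 replicate 3 at 0.10, a crossing of the numbers that was not fitted. Over the 12 member probe sets the same-numbered arrays correlated at 0.84, 0.90, 0.016 and −0.30. The crossed arrays stood at 0.36 for G0 replicate 3 with G1 replicate 4 and at 0.44 for G0 replicate 4 with G1 replicate 3. G0 replicate 4 with G1 replicate 2 stood at 0.66. The members thus varied together on the arrays numbered 1 and on those numbered 2. The intervals and permutations treat the arrays as unpaired and take no account of this. Fosl2 1437247_at had an adjusted p between 0.111 and 0.538 over these alternatives. A filter on low values could not be run on centred values.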
